A study of Mus musculus with 16 samples.

Results

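The genes of 10 subunits of the cytoplasmic dynein motor and its cofactor dynactin were followed in RNA from the dorsal hippocampus of mice trained or not trained in active place avoidance. They are the light chains Dynll2, Dynll1, Dynlrb1 and Dynlt3, the heavy chain Dync1h1, the intermediate chains Dync1i1 and Dync1i2, the light intermediate chains Dync1li1 and Dync1li2, and the dynactin subunit Dctn1. These 10 genes were taken by symbol from the 24972 genes of the deposited tables, and all 10 passed the filter on low values in every comparison. The set was chosen with the training comparison of these libraries already known. Dynll2 had the smallest p of all 14673 genes tested there, so for the 10 genes the difference between trained and untrained libraries is given as a description, with no p. Where members past the threshold are counted for it, the count only describes them.

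Bulk RNA-seq had been made from microdissected CA1, CA3 and dentate gyrus (DG) of 6 adult ArcCreERT2::eYFPflx mice on a C57BL/6 background, 3 to 4 months old. Trained animals were taught to avoid a shock zone on a rotating arena, and untrained animals were placed in the same arena with the shock always off. Both groups then had a retention test with the shock off, and tissue was taken after that test. The training difference therefore compares animals that had all just been through this test. Every animal of both groups carries the Arc-driven, inducible Cre and the eYFP reporter. CA1 gave 3 trained and 3 untrained libraries, CA3 and DG gave 3 trained and 2 untrained libraries each, and tissue pieces of each subregion were pooled within an animal.

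Cytoplasmic dynein walks towards the minus ends of microtubules and, in axons, carries endosomes, signalling receptors and autophagosomes back to the cell body. A pair of heavy chains holds the motor domains. Intermediate and light intermediate chains hang on the heavy chain tails and link the motor to dynactin and cargo adaptors, and 3 families of light chains bind the intermediate chains as dimers. Dynactin, with Dctn1 (p150Glued) as its microtubule-binding arm, is needed for long runs. The Dynll light chains also bind many proteins outside the motor, among them gephyrin at inhibitory synapses, neuronal nitric oxide synthase, myosin Va and the active zone protein Bassoon.

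Dynll1 and Dynll2 code for nearly identical proteins from separate genes, and their reading frames were compared because the results turn on telling these 2 transcripts apart. The first 90 coding bases of each, 5′ to 3′, are shown with the 18 bases that differ between them in capitals. Both stretches lie within a single exon on the minus strand of GRCm38, at chr5:115300555-115300644 for Dynll1 and chr11:87983914-87984003 for Dynll2, and were taken from GENCODE transcripts.
Dynll1: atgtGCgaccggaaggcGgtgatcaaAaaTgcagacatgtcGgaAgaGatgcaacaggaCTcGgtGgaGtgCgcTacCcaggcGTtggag
Dynll2: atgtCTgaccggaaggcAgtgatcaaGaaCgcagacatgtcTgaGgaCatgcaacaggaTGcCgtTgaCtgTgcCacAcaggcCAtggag
Over the whole frame 217 of 267 bases (81.3%) were identical, and the longest identical run in it was 16 bases. Over all annotated transcripts the longest run shared by the pair was 18 bases, against 17 bases for Dync1i1 and Dync1i2 and 20 bases for Dync1li1 and Dync1li2. A run of 50 bases of the coding sequence of Dynll1 was found in 3 other annotated genes, of which only BC048507 was in the tables, where it was listed between 0 and 1.34. Dynll2 and 5 other members shared no such run with any other gene. Exons of Dync1h1 and Dync1li2 overlapped genes on the opposite strand by 451 and 427 bases, and their values can hold reads of those genes where counting ignored the strand.

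The members lie on 8 chromosomes of GRCm38. Dynll2 is at chr11:87979525-87987533, Dynll1 at chr5:115297110-115300999, Dynlrb1 at chr2:155236533-155250277 and Dynlt3 at chrX:9654267-9663003. The larger subunits are Dync1h1 at chr12:110601452-110666945, Dync1i1 at chr6:5725639-6028039, Dync1i2 at chr2:71211706-71263303, Dync1li1 at chr9:114688790-114724302 and Dync1li2 at chr8:104417680-104443047. Dctn1 is at chr6:83165920-83200117.

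All levels below are the authors' estimated counts after their normalisation between libraries, and the reads behind them are unknown. They summed to between 7607326 and 7984931 per library. The number of genes listed at 0 ran from 3124 to 9759, and it was at least 7567 in 7 libraries, which were the 3 trained CA1, the 2 untrained DG and 2 of the 3 trained CA3 libraries (replicates 1 and 2). Xist, transcribed from the inactive X chromosome, lay between 7601 and 19592 in the 9 trained libraries and between 25.5 and 52.4 in 6 untrained libraries. It was 10587 in CA3 untrained replicate 1, whose animal had 26.1 in CA1 and 25.5 in DG, so this library goes against its animal's other libraries. Ddx3y, from the Y chromosome, was 448 to 553 in the 6 untrained libraries with low Xist and 201 in CA3 untrained replicate 1. Beside high Xist it was 101, 92.9 and 255 in CA1, CA3 and DG of trained replicate 3, and 70.9 in CA1 trained replicate 1. The other trained libraries had 1.66 to 12.9. Transcripts of both sexes thus occurred together in several libraries, and the cause was not tested. The methods describe 2 females and 1 male among the trained animals and 1 female and 2 males among the untrained ones, so high Xist in all 9 trained libraries and in 1 of 7 untrained ones goes against the stated sexes. Sex-linked transcripts and training therefore cannot be told apart in most libraries, and the CA3 differences are also given without that CA3 library.

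Marker genes only partly separated the labelled subregions. All 5 CA1 pyramidal markers had their highest mean in CA1 and 3 of 5 CA3 markers theirs in CA3, but only 3 of 6 granule cell markers were highest in DG, and Prox1 had means of 3536 (CA1), 3648 (CA3) and 3665 (DG). Summed CA1 markers were 4835 to 7530 in untrained CA1 and 2898 to 3280 in trained CA1. Summed CA3 markers went the other way in the same libraries, from 1812 to 2128 untrained and from 2978 to 3156 trained. No CA1, CA3 or DG marker was at 0 in any library. In bulk tissue, fewer cells of a type and less RNA per cell cannot be told apart, and CA1, CA3 and DG below mean the libraries with those labels.

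Levels can be compared between genes only per length, here as normalised estimated count per kb of the longest coding transcript. Dynll2 had the highest mean level, 959 per kb ± 171 (SD, n = 16), followed by Dync1h1, the heavy chain, with 779 ± 32.3. Dynll1 (666 ± 71.7), Dynlrb1 (652 ± 75.6) and Dctn1 (641 ± 91.0) came next and were not separated, since Dynll1 exceeded Dynlrb1 in 11 of 16 libraries and Dynlrb1 exceeded Dctn1 in 8 of 16. Dync1i2 (409 ± 22.6) stood below them in all 16 libraries against Dctn1.

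Below these, Dync1li2 (345 ± 27.6 per kb) and Dynlt3 (339 ± 35.1) were level, each above the other in 8 of 16 libraries. Dync1i1 (272 ± 34.1) and Dync1li1 (142 ± 12.9) closed the order, each below its upper neighbour in all 16 libraries. The level depends on the length used. Per kb of all annotated exons, Dynll1 had 348 and Dync1i2 had 130, because both have long extra exons, while Dynll2 stayed highest with 868.

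**Figure D1:**
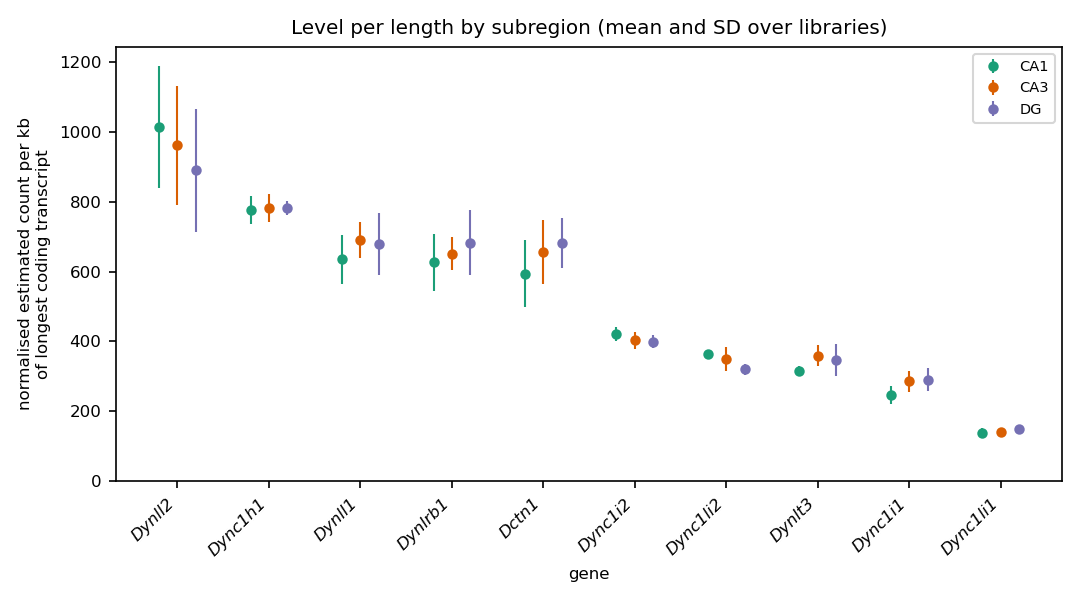
Normalised estimated count per kb of the longest coding transcript (y axis) for the 10 genes (x axis) in CA1, CA3 and DG. Points are means and bars SDs over 6, 5 and 5 libraries of both training groups. Dynll2 is highest on average and Dync1li1 lowest, and the spread of Dynll2 reaches the level of Dync1h1.

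The genes also differed in how steady they were. Over the 16 libraries the coefficient of variation was 4.15% for Dync1h1 and 5.53% for Dync1i2, against a median of 10.7% over 10767 genes of mean value at least 50. Only 1.22% of those genes varied less than Dync1h1, whose mean value was 11178, but the genes compared were not matched for level. Dynll2 stood at the other end with 17.8%, above 86.8% of the genes, and Dctn1 followed with 14.2%. These values also hold the training differences known when the genes were chosen. Within the training groups the coefficient of Dynll2 was 8.90% over the 9 trained libraries and 11.2% over the 7 untrained ones.

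Among the light chains, Dynll2 separated the training groups most clearly. In CA1 its value was 2094, 2129 and 2242 in the untrained libraries and 3200, 2728 and 2683 in the trained ones. In CA3 it was 1804 and 2139 untrained against 2855, 2687 and 2422 trained. In DG it was 1660 and 1796 untrained against 2474, 2594 and 2491 trained. Every trained library lay above every untrained library, also across subregions, where the lowest trained value was 2422 and the highest untrained value 2242.

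The log2 difference of Dynll2, trained minus untrained, was 0.46 ± 0.048 (standard error) over all libraries with subregion as a term. It was 0.41 ± 0.063 in CA1, 0.43 ± 0.097 in CA3 and 0.54 ± 0.065 in DG. All log2 differences here are on the scale of log2(value + 2). With an animal or CA3 untrained replicate 1 left out, the 16-library difference lay between 0.39 and 0.50, and it was 0.43 without CA3 untrained replicate 1. With a score of sex-linked transcripts as a covariate it was 0.50 with a wider standard error of 0.12. That score was -12.7 to -5.53 in the trained libraries and 2.39 to 3.66 in all untrained ones but CA3 untrained replicate 1, at -6.19, so it nearly follows training. Within CA3 the difference of Dynll2 was 0.31 without that library.

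**Figure D2:**
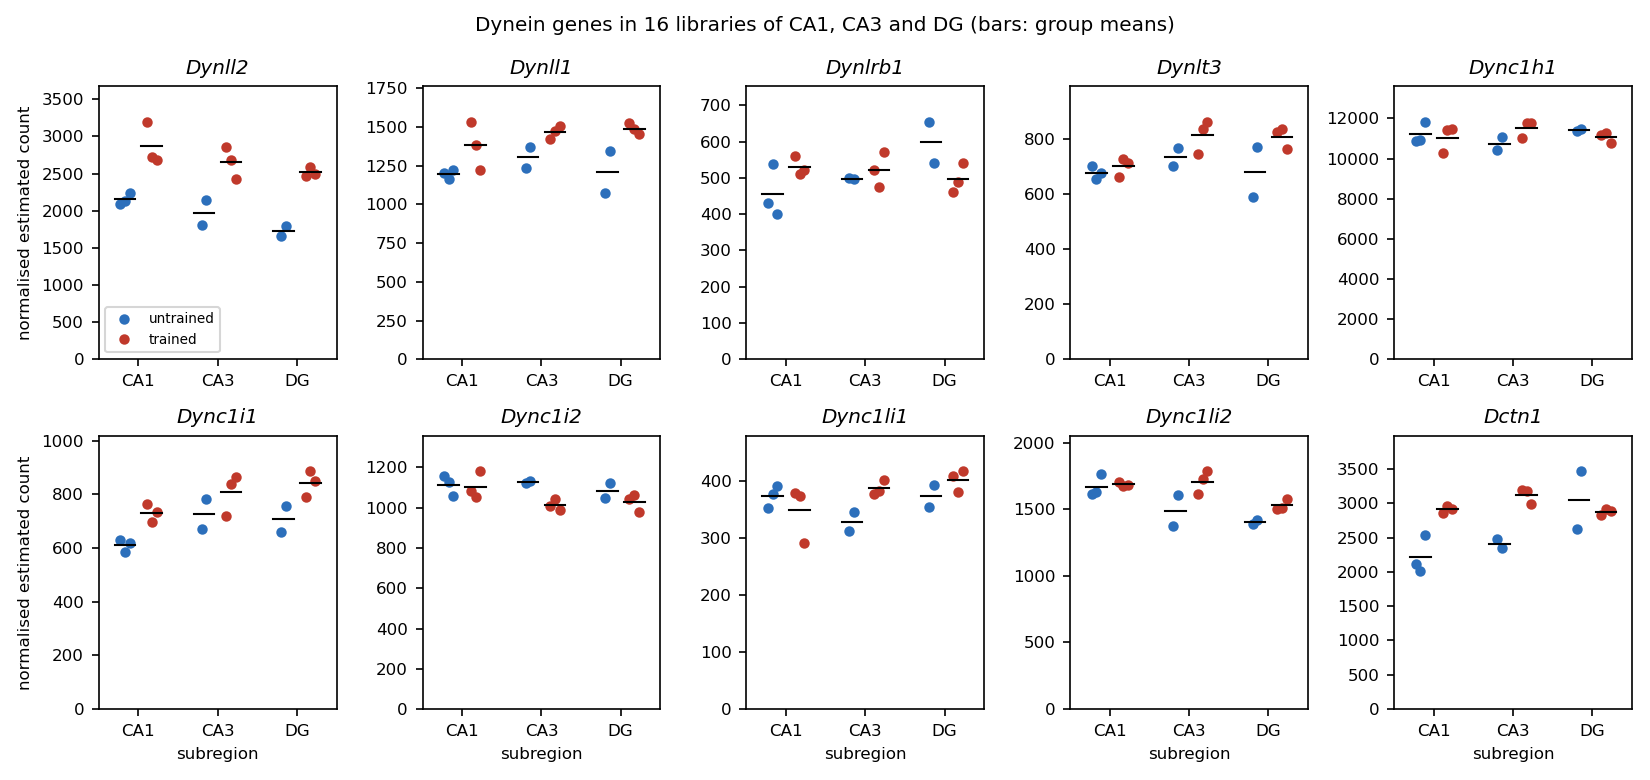
Normalised estimated count (y axis) of each gene in the 16 libraries by subregion (x axis), untrained in blue and trained in red, with group means as bars and each y axis starting at 0. For Dynll2 all trained libraries, 2422 and above, sit over all untrained ones, 2242 and below, while Dync1h1 stays between 10258 and 11840 in both groups.

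Dynll1, the paralog of Dynll2, was also higher in every trained library than in every untrained library of the same subregion, by narrower margins. In CA1 it was 1200, 1167 and 1224 untrained against 1535, 1385 and 1225 trained, so the lowest trained library barely cleared the highest untrained one. In CA3 it was 1236 and 1371 against 1425, 1472 and 1509. In DG it was 1076 and 1345 against 1527, 1486 and 1456. Its log2 difference was 0.22 ± 0.050 over all libraries, 0.20 ± 0.071 in CA1, 0.17 ± 0.078 in CA3 and 0.31 ± 0.085 in DG. Values within a subregion moved with single libraries. For Dynll1 they were 0.12 in CA1 without trained replicate 1, 0.10 in CA3 without untrained replicate 1, and 0.15 or 0.47 in DG without untrained replicate 1 or 3.

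Dynlt3, an X-linked light chain of the Tctex family, overlapped between the groups in every subregion. It ranged from 588 to 770 untrained and from 662 to 862 trained, with a log2 difference of 0.15 ± 0.055 over all libraries, and 0.08 without the animal untrained replicate 1. In CA1 the difference of Dynlt3 was 0.05. In CA3 it was 0.15, and 0.09 without untrained replicate 1. In DG it was 0.26 ± 0.10, and 0.07 or 0.45 without untrained replicate 1 or 3. Dynlrb1, a light chain of the roadblock family, had values of opposite sign in CA1 and DG, neither of them called. In CA1 it was 430, 540 and 400 untrained against 559, 511 and 521 trained, a log2 difference of 0.23 ± 0.098. In DG it was 655 and 542.2 untrained against 462, 488 and 542.0 trained, a log2 difference of -0.26 ± 0.10. Without untrained replicate 3 the CA1 value of Dynlrb1 was 0.14, and without untrained replicate 2 it was 0.35. In DG it was -0.13 without untrained replicate 1 and -0.40 without untrained replicate 3. The DG groups are separated by less than 1 unit, and in CA3 the groups overlapped (497 and 499 untrained, 475 to 572 trained).

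The heavy chain Dync1h1, which carries the motor activity, was nearly level. Its values ran from 10412 to 11840 untrained and from 10258 to 11772 trained, and the log2 difference over all libraries was 0.01 ± 0.036. In DG the trained libraries (10765, 11172 and 11254) lay just below the untrained ones (11373 and 11490), while in CA1 and CA3 the groups overlapped. The CA3 difference of Dync1h1 was 0.10, and 0.06 without untrained replicate 1.

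Of the intermediate chains, Dync1i1, the form enriched in neurons, was 629, 584 and 619 in untrained CA1 against 766, 696 and 734 in trained CA1. In DG it was 659 and 759 untrained against 792, 885 and 849 trained, and in CA3, with 670 and 784 against 720, 839 and 865, the groups overlapped. Its log2 difference was 0.22 ± 0.051 over all libraries, 0.26 ± 0.072 in CA1 and 0.15 in CA3, where it was 0.04 without untrained replicate 1, 0.26 without untrained replicate 2, 0.23 without trained replicate 1 and 0.10 without trained replicate 3. In DG the difference of Dync1i1 was 0.25, and 0.15 without untrained replicate 1. Dync1i2, the broadly expressed form, had a log2 difference of -0.08 ± 0.041 over all libraries. In CA3 all trained libraries (1010, 1042 and 990) lay below the untrained ones (1121 and 1134).

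The light intermediate chains, which hold the cargo adaptors, did not overlap between the groups in CA3. There Dync1li1 was 311 and 344 untrained against 376, 381 and 401 trained, and Dync1li2 was 1375 and 1605 untrained against 1613, 1729 and 1784 trained. Both lowest values belong to CA3 untrained replicate 1. The CA3 log2 difference was 0.24 for Dync1li1 and 0.20 for Dync1li2, and 0.16 and 0.09 without that library. Without untrained replicate 2 the CA3 difference of Dync1li2 was 0.31. In DG the Dync1li2 groups were also apart, with 1391 and 1418 untrained against 1504, 1511 and 1575 trained, a log2 difference of 0.12. The DG values of Dync1li1 overlapped. In CA1 the groups overlapped for both genes, with log2 differences of -0.11 for Dync1li1 and 0.02 for Dync1li2. Over all libraries the log2 difference was 0.06 ± 0.065 for Dync1li1 and 0.11 ± 0.042 for Dync1li2, and without the animal untrained replicate 1 it was -0.01 and 0.05. That of Dync1li1 was 0.10 without trained replicate 3 or untrained replicate 3.

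Dctn1 was higher in trained CA1 and CA3 and not in DG. In CA1 it was 2110, 2016 and 2543 untrained against 2856, 2959 and 2920 trained, a log2 difference of 0.40 ± 0.071. In CA3 it was 2477 and 2346 untrained against 3186, 3178 and 2990 trained, a log2 difference of 0.37 ± 0.073, and of 0.41 without untrained replicate 1. In DG the untrained libraries were far apart, at 2618 and 3463, and enclosed the trained ones at 2835, 2919 and 2882, with a log2 difference of -0.06 ± 0.095. This DG value turned on which untrained library was kept, since it was 0.14 without untrained replicate 3 and -0.27 without untrained replicate 1.

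**Figure D3:**
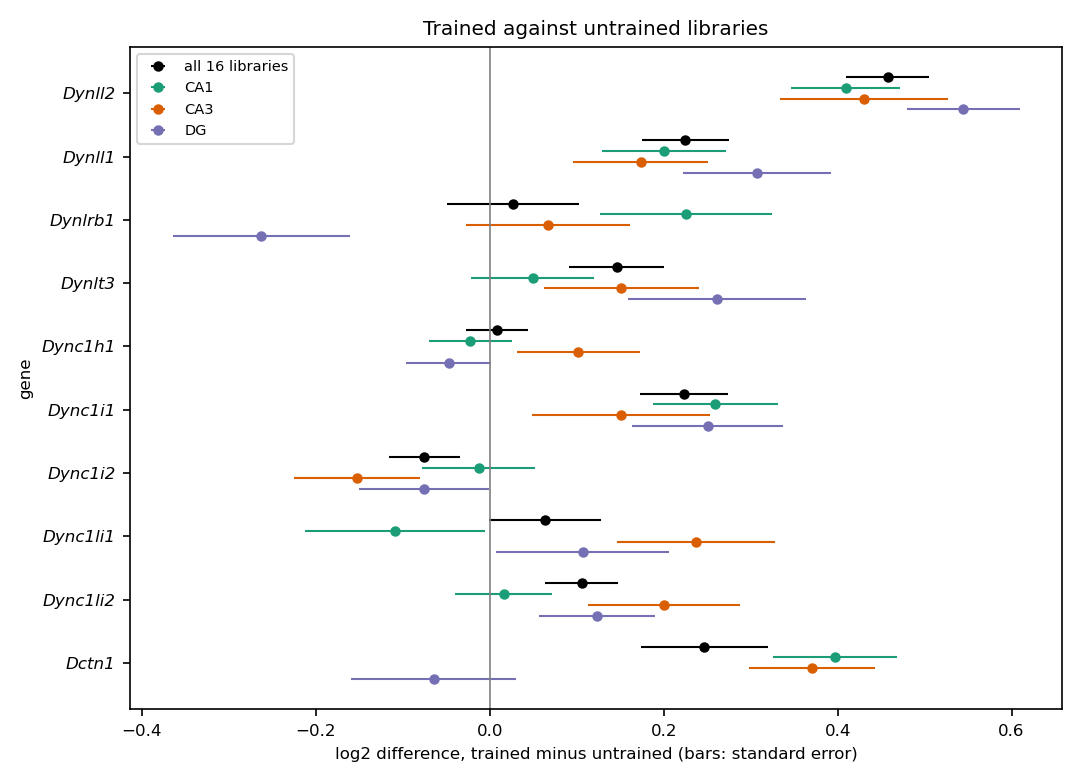
Log2 difference, trained minus untrained (x axis), with its standard error for the 10 genes (y axis) in all 16 libraries and in each subregion. Dynll2 lies at 0.41 to 0.54 in every fit, Dynlrb1 and Dctn1 are positive in CA1 and negative in DG (for Dctn1, 0.14 in DG without untrained replicate 3), and Dync1h1 stays near 0.

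Because the genes were chosen on this comparison, the counts that follow describe them and support nothing. At a limma adjusted p under 0.05 over all genes tested, 4 of 10 members passed over the 16 libraries (Dynll2, Dynll1, Dync1i1 and Dctn1, all higher in trained), where 10.3% of all genes were called. In CA1 3 passed (Dynll2, Dync1i1 and Dctn1; 5.23% of all genes), in CA3 1 (Dctn1; 0.852%) and in DG 1 (Dynll2; 3.39%). The median log2 difference of the members over the 16 libraries was 0.13, against -0.01 for all genes. Adding the sex-linked score to the fit left 0 of 10 members and 0 of all 14673 genes past the threshold over the 16 libraries. Without the animal untrained replicate 1 only Dynll2 passed there, and 3.15% of all genes did. In CA3 0 members passed without CA3 untrained replicate 1 (0.124% of all genes did), without trained replicate 2 (0.0509%) or without untrained replicate 2 (0.191%). In DG 5 passed without untrained replicate 3, but 11.4% of all genes did so, and with 1 untrained library left its spread is assumed to be that of the trained ones.

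Cell type markers moved with training as well. All 5 CA3 pyramidal markers had a higher mean in trained libraries and all 5 CA1 markers a lower one. Of 10 marker lists, 5 had summed levels that did not overlap between the training groups in CA1, 4 in CA3 and 6 in DG. Trained libraries of every subregion had the CA3 pyramidal list higher and the ependymal list lower. In CA1 the summed astrocyte markers were 9548 to 9908 trained and 10282 to 10705 untrained. In CA3 the choroid plexus markers were 236 to 317 trained and 809 to 1120 untrained. In DG the granule cell markers were 8034 to 8426 trained and 10136 to 10291 untrained, and the endothelial ones 313 to 351 and 521 to 613. In CA1 the endothelial markers went the other way, with 607 to 677 trained and 579 to 603 untrained. Over all libraries, 3 of the 6 granule cell markers and 1 of the 9 ependymal ones had a higher mean in trained libraries. A sum follows the most abundant genes of its list, such as Dnah9 (531 trained and 618 untrained) in the ependymal one. The part of these lists in the differences of the members was not tested.

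Counted by libraries that do not overlap, 4 members had all trained CA1 libraries above all untrained ones, as had 12.1% of all genes, and 0 had them all below (12.7%). In CA3 5 members were all higher (16.6%) and Dync1i2 was all lower (16.6%). In DG 4 were all higher (18.2%) and Dynlrb1 and Dync1h1 all lower (17.5%). Dynll2 and Dynll1 were all higher in each of the 3 subregions, which held for 1.62% of all genes, and 0 members were all lower in each (1.29%).

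The contrast between subregions was not used to choose the genes and was tested in a limma fit of all 16 libraries in 6 groups, as the mean of the trained and the untrained difference. Between CA1 and DG, Dynll2 was higher in CA1 by 0.25 ± 0.055 on the log2 scale (limma adjusted p = 0.0119), with means of 2512 ± 434 (SD, n = 6) in CA1 and 2203 ± 439 (SD, n = 5) in DG. Dync1li2 was higher in CA1 by 0.19 ± 0.047 (limma adjusted p = 0.0218), with 1677 ± 53.8 against 1480 ± 74.6, and its 6 CA1 libraries (1614 to 1762) did not overlap with its 5 DG libraries (1391 to 1575). These were 2 of 10 members called, where 4.05% of all genes were.

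Dync1i1 and Dctn1 had lower levels in CA1 than in DG, by log2 differences of -0.21 ± 0.061 and -0.21 ± 0.063, and missed the threshold (limma adjusted p = 0.0565 and 0.0574). With the animal as a block, since same-numbered libraries of a training group come from the same animal, Dctn1 was also called in this pair (-0.18 ± 0.042, limma adjusted p = 0.0181), with 3.93% of all genes. Leaving out the animal trained replicate 2 left 0 members called (0.775% of all genes were), with Dynll2 at an adjusted p of 0.0556 by limma. Without trained replicate 1 Dynll2 and Dync1i1 were called (2.59% of all genes were) and Dync1li2 was not (limma adjusted p = 0.0693). Without trained replicate 3 (1.89% of all genes) or untrained replicate 3 (2.78%) only Dynll2 was called, and without untrained replicate 1 (2.98%) Dynll2, Dync1i1, Dync1li2 and Dctn1 were. Without CA3 untrained replicate 1, which adds only to the estimate of the spread here, Dync1i1 joined Dynll2 and Dync1li2 (limma adjusted p = 0.0486; 4.09% of all genes were called). Summed CA1 pyramidal markers were 4835 to 7530 in untrained CA1 against 2952 to 3018 in untrained DG. In trained libraries they overlapped, with 2898 to 3280 in CA1 and 2306 to 3312 in DG. Their part in this contrast was not tested.

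Between CA1 and CA3, 0 members were called (0.988% of all genes were), and 3 of 10 had an unadjusted limma p under 0.05, as had 10.2% of all genes. The lowest was Dync1i1, with a log2 difference of -0.19 ± 0.061 (limma adjusted p = 0.171), and -0.25 without CA3 untrained replicate 1 or -0.12 without untrained replicate 2. With the animal as a block, Dctn1 was called, at -0.17 ± 0.042 (limma adjusted p = 0.0431; 1.41% of all genes were called), and it was also called without untrained replicate 3 (1.23%). Between CA3 and DG, 0 members were called (0.00682% of all genes) and 2 had an unadjusted limma p under 0.05 (6.86% of all genes had), Dync1li2 with 0.12 ± 0.050 and Dynll2 with 0.13 ± 0.058. Without CA3 untrained replicate 1 these were 0.17 and 0.19, and without untrained replicate 2 they were 0.06 and 0.07. Dync1h1 had the smallest difference of the 10 genes between CA1 and CA3, 0.00 ± 0.039 (-0.02 without CA3 untrained replicate 1), and differed by -0.02 in both other pairs.

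**Figure D4:**
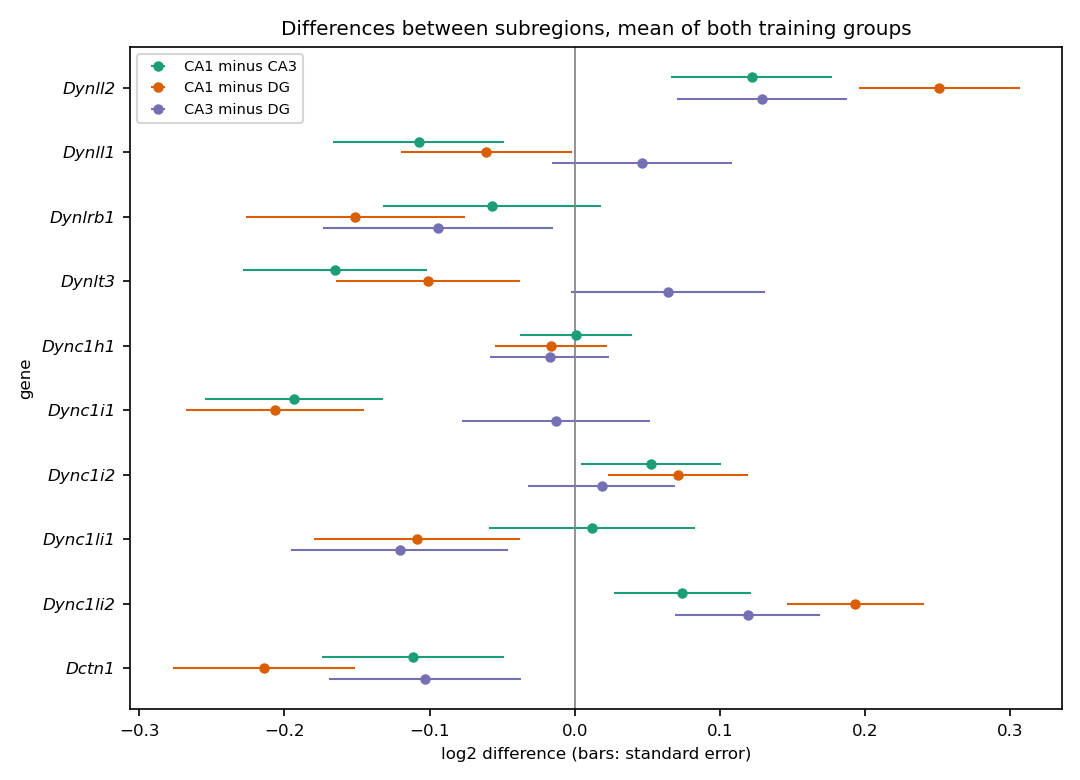
Log2 difference between pairs of subregions (x axis) with its standard error for the 10 genes (y axis), as the mean of the trained and untrained groups. Dynll2 (0.25) and Dync1li2 (0.19) lie to the right for CA1 minus DG, Dync1i1 and Dctn1 (both -0.21) to the left.

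How the training difference itself varied between subregions was taken from the same fit as an interaction. It is made of the training differences known when the genes were chosen, so it too is given as a description, with no p. The difference was larger in CA1 than in DG by 0.46 ± 0.13 for Dctn1 and by 0.49 ± 0.15 for Dynlrb1. With the animal as a block these were 0.39 ± 0.085 and 0.58 ± 0.13. With an animal left out Dctn1 ranged from 0.36 without untrained replicate 3 to 0.63 without untrained replicate 1, and Dynlrb1 from 0.31 without untrained replicate 1 to 0.61 without untrained replicate 2. Dynll2 had -0.14 ± 0.11 for CA1 minus DG, and -0.23 without trained replicate 1 or -0.08 without trained replicate 2. Between CA1 and CA3 the member farthest from 0 was Dync1li1 with -0.35 ± 0.14, which was -0.27 without CA3 untrained replicate 1 and -0.20 without trained replicate 3, whose CA1 library had the lowest Dync1li1. For CA3 minus DG, Dctn1 had 0.44 ± 0.13, which became 0.23 without untrained replicate 3 and 0.68 without untrained replicate 1. By a limma adjusted p under 0.05, 0 members passed for CA1 minus DG (2.75% of all genes did), 0 for CA1 minus CA3 (0.0273%) and 0 for CA3 minus DG (0.164%). At an unadjusted limma p under 0.05 these counts were 2, 1 and 2 of 10 members, against 17.8%, 6.71% and 11.7% of all genes. With the animal as a block 2 passed for CA1 minus DG, Dctn1 and Dynlrb1, where 1.92% of all genes did.

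Ratios of paralogs within a library do not depend on the scaling between libraries. The ratio of Dynll2 to Dynll1 was 1.94 ± 0.17 (SD, n = 6) in CA1, 1.69 ± 0.22 (SD, n = 5) in CA3 and 1.59 ± 0.16 (SD, n = 5) in DG. CA1 was higher than DG (two-sided exact permutation p = 0.00866, adjusted over 9 comparisons 0.0260), and its lowest library, 1.74489, was just below the highest of DG, 1.74513. By training, as a description, the ratio was 1.80 and 2.08 in untrained and trained CA1, 1.51 and 1.81 in CA3, and 1.44 and 1.69 in DG.

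The ratio of Dync1li1 to Dync1li2 ran the other way. It was 0.215 ± 0.021 (SD, n = 6) in CA1, 0.224 ± 0.0070 (SD, n = 5) in CA3 and 0.264 ± 0.011 (SD, n = 5) in DG. All 5 DG libraries (0.252 to 0.276) lay above all CA1 libraries (0.173 to 0.231) and all CA3 libraries (0.214 to 0.233). The exact permutation p was 0.00433 against CA1 and 0.00794 against CA3, the smallest these group sizes can give (adjusted 0.0260 for both). Between CA1 and CA3 the log2 ratio differed by -0.07 (exact permutation p = 0.459, adjusted 0.527).

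The ratio of Dync1i1 to Dync1i2 was 0.606 ± 0.072 in CA1, 0.736 ± 0.11 in CA3 and 0.753 ± 0.10 in DG, and no pair passed after adjustment (exact permutation, adjusted p = 0.0779, 0.0584 and 0.802 for CA1 against CA3, CA1 against DG and CA3 against DG, with n = 6, 5 and 5). Without CA3 untrained replicate 1 the pairs of this ratio with CA1 were called too (exact permutation, adjusted 0.0429 and 0.0468), 5 of 9 comparisons in all, against 3 with it. The pair of CA1 and DG holds no CA3 library. Its exact permutation p stayed at 0.0260, and only the adjustment over the 9 comparisons changed. By training, the mean of this ratio was 0.549 untrained and 0.663 trained in CA1, 0.645 and 0.797 in CA3, and 0.653 and 0.820 in DG. The test ignores training, and without that library CA3 holds 3 trained libraries and 1 untrained one against 3 and 3 in CA1, so training and subregion are then mixed in the pair of CA1 and CA3. With differences taken within animals 0 of 9 were called, but the smallest p that 5 animals allow in that exact test is 0.0625. Leaving out any animal other than untrained replicate 2 also gave 0. In those fits the log2 ratio of Dync1li1 to Dync1li2 was still lower in CA1 than in DG, by -0.33 to -0.24, and its exact permutation p stayed at 0.0159, the smallest that 5 against 4 libraries can give.

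**Figure D5:**
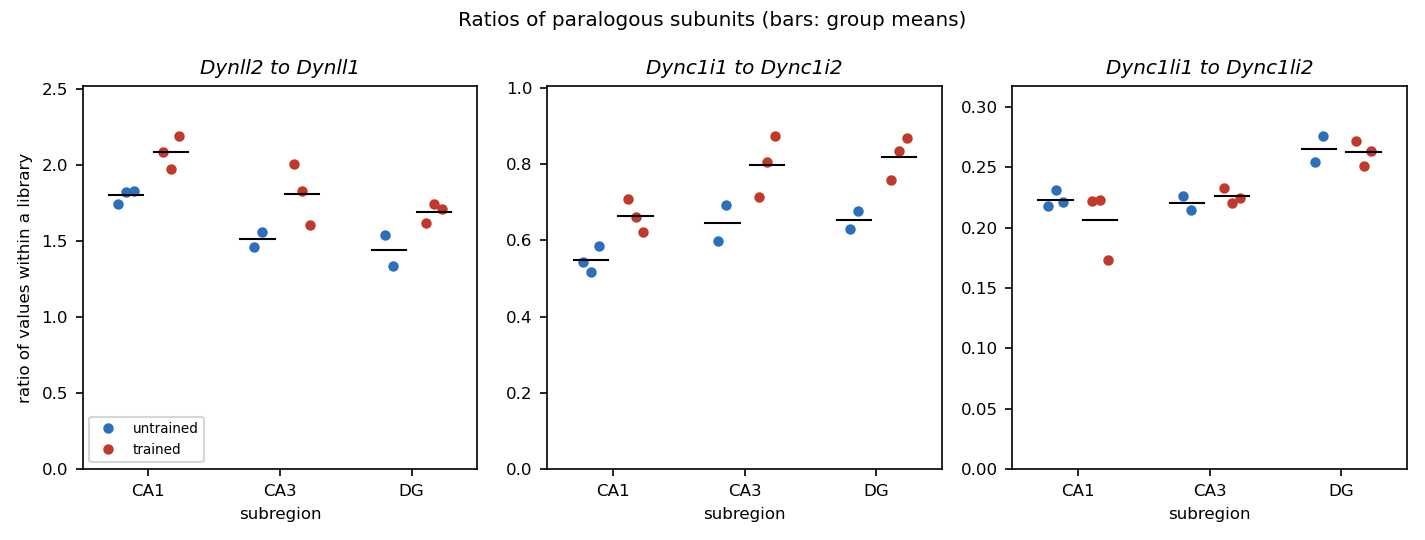
Ratio of the values of paralogous subunits within each library (y axis) by subregion (x axis), untrained in blue and trained in red, with group means as bars and each y axis starting at 0. The DG libraries stand highest for Dync1li1 to Dync1li2 (0.252 to 0.276), and the mean of Dynll2 to Dynll1 falls from 1.94 in CA1 to 1.59 in DG.

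Across the 16 libraries the genes whose log2 values ran most like those of Dynll2, among 10757 genes of mean value at least 50, were Snora78, Ift52, Atp5g3, 2900097C17Rik and Csad. Their likeness to Dynll2 was 0.911, 0.888, 0.876, 0.875 and 0.875, as Pearson's r over the same 16 libraries, given as a description. Since Dynll2 separates the training groups, genes chosen for likeness to it can be expected to do so, and all 5 did within each subregion. The steepest was Snora78, a small nucleolar RNA, with means of 87.6 trained and 29.3 untrained, and Atp5g3, a subunit of ATP synthase, had 825 and 596.

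Lists of the dynactin and LIS1 group, cargo adaptors, other dynein subunits and light chain partners held 55 other genes of the pathway, of which 50 were tested. The lists were drawn up with earlier training results of these libraries known, so their calls by training are no independent evidence. Over the 16 libraries 5 of 50 were called higher and 1 lower in trained libraries, near the 10.3% called of all genes, and their median log2 difference was 0.01, against -0.01 for all genes. Of 16 dynactin and LIS1 group genes only Dctn2 (dynamitin, which ties the dynactin arm to its filament) was called, with means of 1017 trained and 917 untrained (0.15 ± 0.047, limma adjusted p = 0.0424). Of 16 cargo adaptors tested, Hap1, which binds huntingtin and Dctn1, was higher by 0.31 ± 0.056 (883 against 709, limma adjusted p = 0.00121) and Mapk8ip1 by 0.16 ± 0.048 (limma adjusted p = 0.0362). Trak2, an adaptor of mitochondria, was lower by -0.13 ± 0.041 (1991 against 2173, limma adjusted p = 0.0367). Of 8 other dynein subunits tested, 0 were called.

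Among 10 partners of the Dynll light chains, Bsn (Bassoon) and Nos1 were called over the 16 libraries. The training difference of Bsn was known beforehand and is given as a description. Bsn was 6532, 6290 and 6984 in untrained CA1 against 11032, 11496 and 10644 in trained CA1, and 8105 and 7400 against 12686, 12140 and 11570 in CA3. In DG the groups overlapped, at 8684 and 9441 untrained and 9968, 11204 and 8687 trained. Its log2 difference was 0.74 ± 0.045 in CA1 and 0.65 ± 0.075 in CA3, and it was larger in CA1 than in DG by 0.62 ± 0.11. Nos1, neuronal nitric oxide synthase, was higher by 0.22 ± 0.051 over the 16 libraries (1286 against 1106, limma adjusted p = 0.00744). In CA1 Bcl2l11 (Bim), a cell death inducer held by Dynll1, was lower (42.0 against 71.6, -0.74 ± 0.21, limma adjusted p = 0.0428), and Bsn, Hap1 and Dctn2 were called higher there. These are 4 of 50 pathway genes in CA1, where 5.23% of all genes were called, and Bsn was the 1 of 50 in CA3 (0.852%).

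In DG 1 of 50 pathway genes was called by training (3.39% of all genes were). Dync2li1, the light intermediate chain of the ciliary dynein, was 103 and 107 untrained against 66.3, 53.0 and 67.2 trained (-0.74 ± 0.19, limma adjusted p = 0.0469), and its training difference in CA1 was above that in DG by 0.93 ± 0.25 (interaction, limma adjusted p = 0.0456). With Bsn it was 1 of 2 pathway genes called for that interaction (2.75% of all genes were). Between subregions, Dctn3 (p24 of dynactin) was lower in CA1 (238) than in CA3 (309) and DG (304), by -0.35 ± 0.086 and -0.31 ± 0.086 (limma adjusted p = 0.0438 and 0.0454). Pak1, a kinase that binds Dynll1, was lower in CA1 than in DG by -0.18 ± 0.049 (limma adjusted p = 0.0352). That makes 1 of 50 called between CA1 and CA3 (0.988% of all genes) and 2 of 50 between CA1 and DG (4.05%). Over the settings tried the number of pathway genes called ran from 0 to 9 over the 16 libraries (0% to 12.8% of all genes). It ran from 2 to 5 in CA1 (2.46% to 8.24%). No range is given for CA3 and DG, where some settings leave 1 untrained library. Hap1 was called in 16 of 17 settings over the 16 libraries, not with the sex-linked score, and in all 15 in CA1. Nos1 was called in 15 of 17, and not without trained replicate 2. Bsn, given as a description, was called in all 15 settings in CA1. Apart from Bsn, each of the remaining calls was lost when any of several animals was left out: Dctn2 (7 of 17 settings, and 5 of 15 in CA1), Mapk8ip1 and Trak2 (9 of 17 each), Bcl2l11 (7 of 15), Dync2li1 in DG (7 of 14) and for its interaction (5 of 15, and not with the replicate block), Dctn3 (7 of 17 in both pairs) and Pak1 (11 of 17).

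The start-site windows of 8 members were in the RefSeq promoter table of GRCm38.p6, in 11 windows of 300 bases (250 before and 50 after the start). Windows of Dynll1, higher in trained libraries, and Dync1h1, the steadiest member, are shown 5′ to 3′ along the gene with matches of either strand in capitals, to the CCAAT box, whose letters are its name, and to the GC box, searched as GGGCGG. Dynll1 lies at chr5:115300941-115301240 on the minus strand and Dync1h1 at chr12:110601145-110601444 on the plus strand.
Dynll1: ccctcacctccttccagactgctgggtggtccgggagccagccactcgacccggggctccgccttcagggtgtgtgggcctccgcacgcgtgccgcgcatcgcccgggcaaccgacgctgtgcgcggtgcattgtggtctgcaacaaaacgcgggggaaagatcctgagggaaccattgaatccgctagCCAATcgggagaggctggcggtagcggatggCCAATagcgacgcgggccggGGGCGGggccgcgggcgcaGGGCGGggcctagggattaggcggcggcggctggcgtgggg
Dync1h1: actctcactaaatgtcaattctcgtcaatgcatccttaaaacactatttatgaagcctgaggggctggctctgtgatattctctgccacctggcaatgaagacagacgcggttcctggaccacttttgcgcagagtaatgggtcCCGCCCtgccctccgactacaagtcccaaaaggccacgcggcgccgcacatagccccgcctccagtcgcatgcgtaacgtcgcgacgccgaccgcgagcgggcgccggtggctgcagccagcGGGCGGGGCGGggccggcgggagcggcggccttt
The window of Dynll1 held 2 CCAAT and 2 GC box matches, and that of Dync1h1 held 0 and 3, of which 2 overlap. CCAAT was found in 1 of the 11 member windows and in 37.4% of all 32851 windows. The GC box was found in 8 of the 11 windows, which belong to 6 members, and in 35.7% of all windows. The short site TGACG of the cAMP response element was found in 4 of the 11 windows (of Dync1h1, Dynlrb1 and Dynlt3) and in 20.8% of all windows, and the full element TGACGTCA, which contains it, in 0 of 11 and in 1.79%. These matches describe letters in the windows and were not tested.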

How the data were processed

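Bulk RNA-seq of 16 libraries (9 trained, 7 untrained) was analysed, and the members and gene lists were chosen with earlier results of these data known. Per the labels and methods, the authors depleted ribosomal RNA (the labels also give polyA RNA), trimmed reads with Trim Galore, aligned them with STAR to the mouse genome (GRCm38 in the labels, while the methods write MM10 and GRCm39) and quantified genes with Salmon. The deposited signal is an estimated count normalised between libraries, with DESeq2 named in the submitters' processing notes. Values are not whole, the reads behind them are unknown, and no counting interval is given.

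In place of a count test, log2(value + 2) was fitted with limma 3.58.1 (R 4.3.3), with a trend, robust estimation and Benjamini-Hochberg adjustment over all genes tested. Genes were kept at a value of at least 10 in at least 3 libraries (CA1) or 2 (other fits). The combined training fit had subregion as a term and treated libraries of an animal as independent. Libraries of the same animal deviated from group means with correlations of -0.108 to 0.092 (14 pairs). Separate animals per group number 3 at most. Ratios were tested by exact permutation (SciPy 1.17.1).

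Named genes were the 10 members, per list and comparison the 2 higher and 2 lower called genes of smallest adjusted p, and the 5 genes most like Dynll2. Other cell type lists fixed as markers were interneuron, astrocyte, oligodendrocyte, microglia, endothelial, choroid plexus and ependymal genes, and alternatives are listed in the closing section. On simulated data the fit recovered 89.2% of changed genes over 16 libraries (14316 genes), 74.3% in CA1 (13537 genes), 66.7% in CA3 (13733 genes), 69.4% in DG (13747 genes), 85% between CA1 and DG (14337 genes) and 57.4% for the interaction of CA1 minus DG (14319 genes), with changes of 1 on the log2 scale. Changes of that size exceed every difference given here for a member, so these rates do not hold for the smaller ones. The simulated noise was independent between libraries, also those of the same animal. Symbols were matched to GENCODE for 24464 of 24970 names, and promoters came from RefSeq.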

Additional observations from a re-analysis of the deposited data

Results flagged for a closer look

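A library was set apart where its gap to the nearest value exceeded Dixon's 95% limit for its group. Of 50 groups of member values tested, 4 met this, and chance alone gives about 1 in 20. Dynll1 was lowest among the 9 trained libraries in CA1 trained replicate 3, at 1225 against 1385 to 1535 in the others. The same library had the lowest Dync1li1, at 291, both among the 6 CA1 libraries and among the 9 trained libraries, and it also had the most genes listed at 0, 9759. Without trained replicate 3 the log2 training difference of Dynll1 in CA1 was 0.28, against 0.20 with it. Dynlt3 was lowest among the 5 DG libraries in DG untrained replicate 1, at 588, where the next was 764.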

How the results depend on the processing

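Members called were counted again with a pseudocount of 0.5, median-of-ratios or upper-quartile rescaling, no filter, a stricter filter (10 or more in all libraries), ordinary in place of robust estimation, other libraries in the fit, a replicate block, covariates, and each animal or CA3 untrained replicate 1 left out. For training and its interactions these counts only describe the members. No difference called in the main fits reversed its direction within its comparison. Median-of-ratios rescaling left the values as they were. Over the 16 libraries the 4 training calls fell to 0 with the sex-linked score (0 of all 14673 genes) and ran from 1 to 5 with an animal or library left out (3.15% to 12.8% of all genes). In CA1 the 3 calls became 2 with upper-quartile rescaling (5.44% of all genes), the replicate block (4.11%) or the spread from all libraries (4.93%). Dync1i1 was lost there. The CA1 calls were 2 to 3 with 1 left out (2.46% to 6.46%). In CA3, where 118 genes were called in all, the 1 call became 0 without robust estimation (56 of all genes). It became 2 with the replicate block (1160) and 2 with the spread from all libraries (413). With a trained animal left out it was 0 to 2 (0.0509% to 4.94% of all genes). In DG 1 became 2 with upper-quartile rescaling (3.44% of all genes), 2 with the replicate block (3.59%), and 1 to 5 with 1 left out (0.203% to 11.4%). For CA1 against CA3, 0 became 1 with the replicate block (1.41%) and 0 to 1 with 1 left out (0.357% to 1.23%). For CA1 against DG, 2 became 4 with upper-quartile rescaling (4.15%), 3 with the replicate block (3.93%) and 0 to 4 with 1 left out (0.775% to 4.09%). For the training difference of CA1 minus DG, 0 became 1 with upper-quartile rescaling (2.66%), 2 without a filter (8.68%), 2 with the replicate block (1.92%) and 0 to 1 with 1 left out (0.165% to 2.75%). For CA3 minus DG, 0 became 0 to 1 with 1 left out (0% to 0.495%). The 3 paralog ratio calls became 0 with the replicate block, where 5 animals cannot give a p under 0.0625, and 0 to 5 with 1 left out. The cause of these changes was not tested, except that fewer libraries enter each fit with 1 left out. Of 192 values of single called genes and ratios under the alternatives, 142 kept their side of the threshold and 50 lost it.

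Libraries that share a number within a subregion across training groups are different animals, and their deviations correlated between -0.180 and 0.119, so the replicate block of the training fits pairs only numbers. With 2 or 3 animals a group, and depth unknown, small differences of Dync1li1 and Dynlrb1 cannot be resolved.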
